A study of Mus musculus with 6 samples.

Results

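The 40S ribosomal protein genes are here 28 genes that encode proteins of the small subunit of the cytoplasmic ribosome. They were chosen by gene symbol, from a list of the small-subunit proteins, and all 28 were found among the 17463 genes of the deposited table. RNA-seq of 6 samples was analyzed. Fetal liver erythroblasts of C57BL/6J mice that lacked the erythroid surface protein TER119 were purified and cultured in erythropoietin medium for 30 h, with 40 µM cholesterol in 3 cholesterol samples and without it in 3 control samples, which the labels call untreated and the study vehicle-treated. All samples shared the strain, the medium and the culture time, and according to the methods of the study TER119+ cells were sorted before RNA extraction. The labels number the samples 1 to 3 in each group and do not say whether the numbers stand for separate cultures or animals, so p-values measure only the spread between these samples, which may be technical. Polyadenylated RNA was read as single-end reads of 50 bases.

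The small subunit binds messenger RNA, scans it for the start codon and decodes it. It consists of the 18S ribosomal RNA and one copy of each small-subunit protein, and the messages of these proteins carry a terminal oligopyrimidine (TOP) tract, a cytosine at the very 5′ end followed by an unbroken run of pyrimidines, through which their translation responds to the kinase mTORC1. Erythroblasts depend on a high supply of ribosomes: loss of one copy of RPS19 or of several other ribosomal protein genes causes Diamond-Blackfan anemia, in which red cell precursors fail while most other blood lineages are spared.

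The annotated start sites show which members begin with a TOP tract in the reference genome. Sequences were those of RefSeq on the build GRCm38.p6, and the table of start sequences used here held 24 of the 28 genes. A TOP start was counted where the annotated first base was C and at least 4 further pyrimidines followed, and 7 of the 24 members met this (29.2%), against 7 of 34 large-subunit genes (20.6%) and 813 of 27025 genes (3.01%). The 7 are shown because they carry the element that defines this gene class, each as 15 bases before and 15 bases from the annotated start, 5′ to 3′ on the gene's strand, with the pyrimidine run in capitals.
Rps6: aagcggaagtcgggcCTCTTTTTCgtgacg
Rps10: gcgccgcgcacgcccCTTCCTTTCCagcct
Rps15a: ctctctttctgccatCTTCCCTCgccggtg
Rps18: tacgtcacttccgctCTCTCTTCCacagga
Rps21: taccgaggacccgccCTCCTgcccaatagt
Rps27: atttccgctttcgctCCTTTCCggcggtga
Fau: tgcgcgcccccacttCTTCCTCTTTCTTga
These windows lie at chr4:86857353-86857382 (minus strand) for Rps6, chr17:27635230-27635259 (minus) for Rps10, chr7:118116133-118116162 (minus) for Rps15a, chr17:33955651-33955680 (minus) for Rps18, chr2:180257364-180257393 (plus) for Rps21, chr3:90213634-90213663 (minus) for Rps27 and chr19:6057932-6057961 (plus) for Fau. The longest run, 13 bases, is that of Fau, and the shortest of the 7, 5 bases, is that of Rps21. All 7 windows span the promoter edge and the first bases of exon 1.

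Starts without the element are shown for a pair of Diamond-Blackfan anemia genes. The first of the 3 annotated starts of Rps19 (chr7:24884577-24884606, plus) begins with G and has no run, and the first of the 2 annotated starts of Rps24 (chr14:24490663-24490692, plus) has a run of 6 bases that begins with T.
Rps19: tccgaaatctcgcgagactcgacgcccgac
Rps24: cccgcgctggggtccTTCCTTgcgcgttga
A TOP start was therefore annotated at a minority of the members, and an annotated start can lie some bases away from the start used in these cells, which these data do not measure. Short motifs, none of which contains another, were searched on both strands from 250 bases before to 50 bases after each start. The ETS-type motif CCGGAAG was found in 10 of 24 members (41.7%), 14 of 34 large-subunit genes (41.2%) and 9.93% of all genes. The YY1-type motif ATGGCGGC was found in Rps13 and Rps18 (8.33%, against 2.6% of all genes), the E-box CACGTG in Rps19 alone (4.17%, against 8.09%) and TATAAA in Rps2 and Rps28 (8.33%, against 15.7%). The sterol regulatory element TCACNCCAC was found in 0 of the 24 windows and in 1.44% of all genes, which says only that these letters are not in these windows.

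Each library held between 19826849 and 20061724 expected counts, that is, counts estimated per gene by the authors' program, and 3 counts corresponded to about 0.15 CPM (counts scaled to the size of the library). The members were deeply covered: Rps6 had 797 to 1334 counts per sample, and the other 27 members had at least 2792, and at most 79867, in each sample. Abcg1, the sterol efflux transporter induced by cholesterol loading, lay between 4.36 and 6.93 CPM in the control and between 93.9 and 101 CPM in the cholesterol samples, so the libraries matched their labels (log2 fold change 4.05, SE 0.18, adjusted p = 0.00292 with edgeR). Markers of late erythroblasts summed to 152819 to 206433 CPM in control and 137759 to 184315 CPM in cholesterol samples, with 10 of 10 genes at or above 1 CPM. Sample 3 stood apart in both groups: its granulocyte markers (9 of 9 at or above 1 CPM) summed to 674 CPM in control and 281 CPM in cholesterol, against 40.5 to 253 CPM in the other 4 samples, and its macrophage markers (7 of 9, C1qa and Vcam1 under 1 CPM) to 297 and 107 CPM, against 20.1 to 90.4 CPM. Both sums were also lower with cholesterol in each pair: granulocyte markers summed to 70.4, 253 and 674 CPM in control and 40.5, 110 and 281 CPM in cholesterol samples 1 to 3, and macrophage markers to 30.1, 90.4 and 297 CPM against 20.1, 38.7 and 107 CPM. Mast cell markers (2 of 6 at or above 1 CPM) were lower in each pair as well, with 1.77, 4.41 and 19.1 CPM against 0.542, 1.33 and 2.96 CPM. Early progenitor markers (4 of 4) summed to 21.5 to 31.1 CPM in control and 11.5 to 15.6 CPM in cholesterol samples, without overlap. The sums of the other lists over all samples were 58.2 to 75.2 CPM for megakaryocyte (4 of 5), 64.4 to 267 CPM for hepatocyte (5 of 5) and 0.444 to 5.61 CPM for lymphoid markers (0 of 5), and no marker was at 0 in every sample. In such bulk samples fewer cells of a type and less RNA per cell cannot be told apart.

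Levels of the members were compared per transcript length, as the FPKM values the authors deposited. Rps26, a protein of the mRNA exit channel, was the highest with 3163, 2664 and 2749 FPKM in control samples 1 to 3 and 3438, 3173 and 2615 FPKM in cholesterol samples 1 to 3. Rps2, at the center of the subunit, followed with 3029, 2894 and 2295 FPKM in control and 3545, 3235 and 2385 FPKM in cholesterol. The ranges of the pair overlapped, so their order is not set by these data. Below them stood Rps23, a protein of the decoding site, at a mean over 6 samples of 2070 FPKM, Rps12 at 2012 FPKM and Rpsa, the laminin receptor homolog, at 2009 FPKM. Of the 27 pairs of neighbors in the order, 23 overlapped in their ranges over the 6 samples. The 4 that did not were Rps7 above Rps19, Rps21 above Rps20, Rps20 above Rps15a, and Rps15a above Rps6. The order was stable between samples, since 24 members moved by at most 3 places, and the largest move, by 7 places, was that of Rps27.

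**Figure D1:**
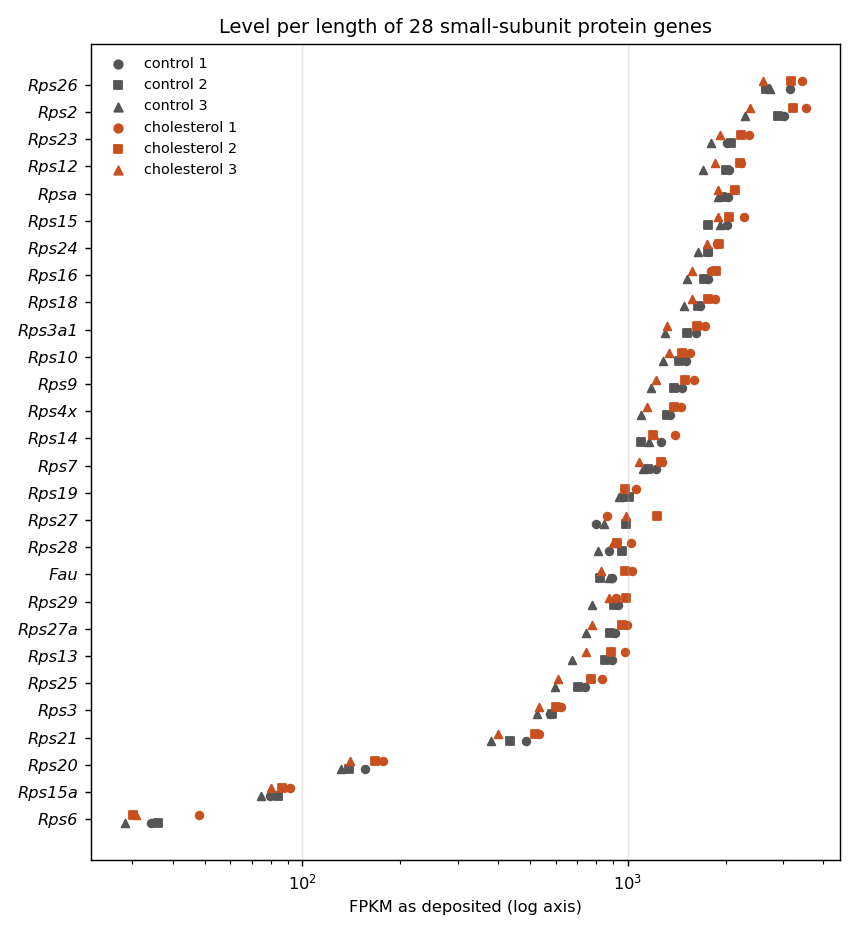
FPKM as deposited (log axis) of the 28 small-subunit protein genes, ordered by their mean, with 1 point per sample (gray, control; orange, cholesterol; the shape gives the sample number). Most members lie within a narrow band, with Rps20, Rps15a and Rps6 far below it.

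The proteins are present once in each subunit, but the listed mRNA levels covered an 85.9-fold range, from 2967 FPKM for Rps26 to 34.6 FPKM for Rps6. Most of this range came from the 3 lowest members, Rps20 (152 FPKM), Rps15a (82.7 FPKM) and Rps6 (34.6 FPKM). Without them the other 25 members lay between 459 and 2967 FPKM, a 6.47-fold range with a median of 1293 FPKM. The gene length implied by count and FPKM together was largest for a pair of these. It was 5262 bases for Rps15a, whose coding transcripts in GENCODE M21 run from 250 to 5179 bases, and 3518 bases for Rps20, whose single coding transcript has 3706 bases. For Rps6 it was 1401 bases, above the 878 bases of its coding transcript, while Rpsa, at 2009 FPKM, had 1883 bases and Rps3, at 575 FPKM, had 1901 bases. The part of the length in the order of the levels was not tested. For the other 23 members it was under 1000 bases. On CPM, which does not divide by length, Rps15a lay between 409 and 471 and Rps20 between 479 and 609, within the range of the other members, whereas Rps6 remained the lowest at 41.2 to 65.7 CPM.

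Rps6 encodes the substrate of the S6 kinases that act below mTORC1. It was also the member whose sequence is least its own: 84.6% of the stretches of 50 bases, the read length, in its transcripts occur in 14 other GENCODE genes. The shared percentage had a median of 34.2% over the members and was lowest in Rps3 (2.82%). It was above 30% in 17 members, and Rps18, with 79.4% shared, was listed at 1667 FPKM, above the median of the members. GENCODE names 102 pseudogenes after 21 of the members, 24 of them after Rps12. None of these pseudogenes was among the genes of the table that share a stretch of 50 bases with a member. Whether reads of Rps6 were assigned to other copies was not tested, and its level is uncertain for this reason.

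The comparison between the groups asks whether mRNAs of the small subunit were more abundant in erythroblasts cultured with cholesterol. The difference was small and of one sign. All 28 members had a log2 fold change above 0, from 0.01 (Rps10) to 0.20 (Rps27), with a median of 0.08, or 5.50%, against 52.1% of the 11277 genes tested above 0 and a median of 0.01. Among the 3740 genes expressed at least as highly as the lowest member, 57.5% were above 0. None of the members passed the test: with edgeR and the condition alone 0 of 28 were called at an adjusted p under 0.05, where 0.00887% of all genes were called higher (Abcg1 alone) and 0% lower. The smallest adjusted p of a member was 0.9998. No member had an unadjusted p under 0.05 either, where 0.718% of all genes were higher and 1.92% lower, and DESeq2 and limma called 0 members. The standard error of a single member had a median of 0.09 on the log2 scale in this fit. The control and cholesterol samples overlapped for each of the 28 members, while 3.72% of all genes had groups that did not overlap and were higher with cholesterol and 4.28% were lower. Members measured in the same 6 libraries do not vary independently, so 28 positive signs are not 28 separate observations. Leaving out 1 sample moved these values in both directions: the number above 0 and the median were 18 and 0.01 without cholesterol sample 1, 22 and 0.03 without control sample 3, 28 and 0.13 without control sample 1, and 28 and 0.14 without cholesterol sample 3. With whole pairs left out of the fit with the sample numbers blocked, they were 27 and 0.07 without pair 1, 24 and 0.05 without pair 2, and 28 and 0.09 without pair 3.

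**Figure D2:**
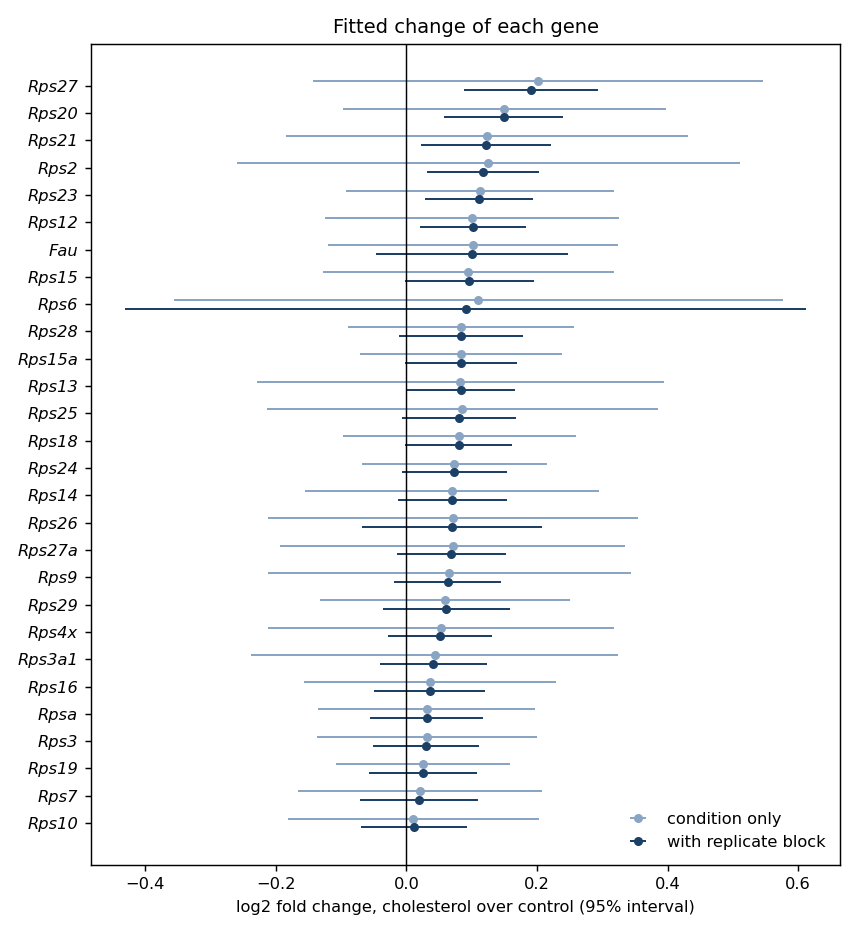
Fitted log2 fold change of each member, cholesterol over control, with its 95% interval, from edgeR with the condition alone (light) and with the sample numbers blocked (dark). All 28 intervals of the first fit include 0, and 7 of the second lie above 0.

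The samples with the same number deviated together, and the fit with this number as a block had a median standard error of 0.04 at the same median log2 fold change of 0.08. It called 2 of 28 members higher and 0 lower, where 1.65% of all genes were called higher and 5.2% lower. The 2 were Rps27 (14.1% higher, 95% interval 6.33 to 22.5%, adjusted p = 0.0236) and Rps20 (10.9% higher, 95% interval 4.05 to 18.1%, adjusted p = 0.0467). DESeq2 with the same block called neither, with an adjusted p of 0.0513 for Rps27 and 0.119 for Rps20. At an unadjusted p under 0.05, 7 members were higher in the block fit (Rps27, Rps20, Rps2, Rps23, Rps12, Rps21 and Rps13), where 8% of all genes were higher and 11.6% lower. The calls depended on the pairs used: without pair 1 Rps27 was the single member called, without pair 2 there were 0, and without pair 3 there were 8 (Rps2, Rps15, Rps20, Rps21, Rps23, Rps26, Rps27 and Fau). Over all genes tested, the fits without pair 1, 2 and 3 called 118 of 11496, 67 of 11492 and 210 of 11128 higher. For 26 members the upper bound of the 95% interval in the block fit was under 20%, and for the 27 members other than Rps6 the bounds lay between -4.86% and 22.5%.

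Within the pairs, 14 members were higher with cholesterol in all 3 (Rps2, Rps4x, Rps9, Rps12, Rps13, Rps14, Rps15a, Rps18, Rps20, Rps21, Rps23, Rps24, Rps27 and Rps27a), against 19.9% of all genes and 25% of the 3740 genes at or above the level of the lowest member. The other 14 were higher in 2 of 3 pairs. The median difference over the members was 0.07 on the log2 scale in pair 1, 0.11 in pair 2 and 0.03 in pair 3, with 25, 25 and 20 members higher. Sample 3 was the lowest control sample for 21 members and the lowest cholesterol sample for 24, and cholesterol sample 1 was the highest of all 6 for 21. Cholesterol sample 3 lay below control sample 1 for 24 members.

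**Figure D3:**
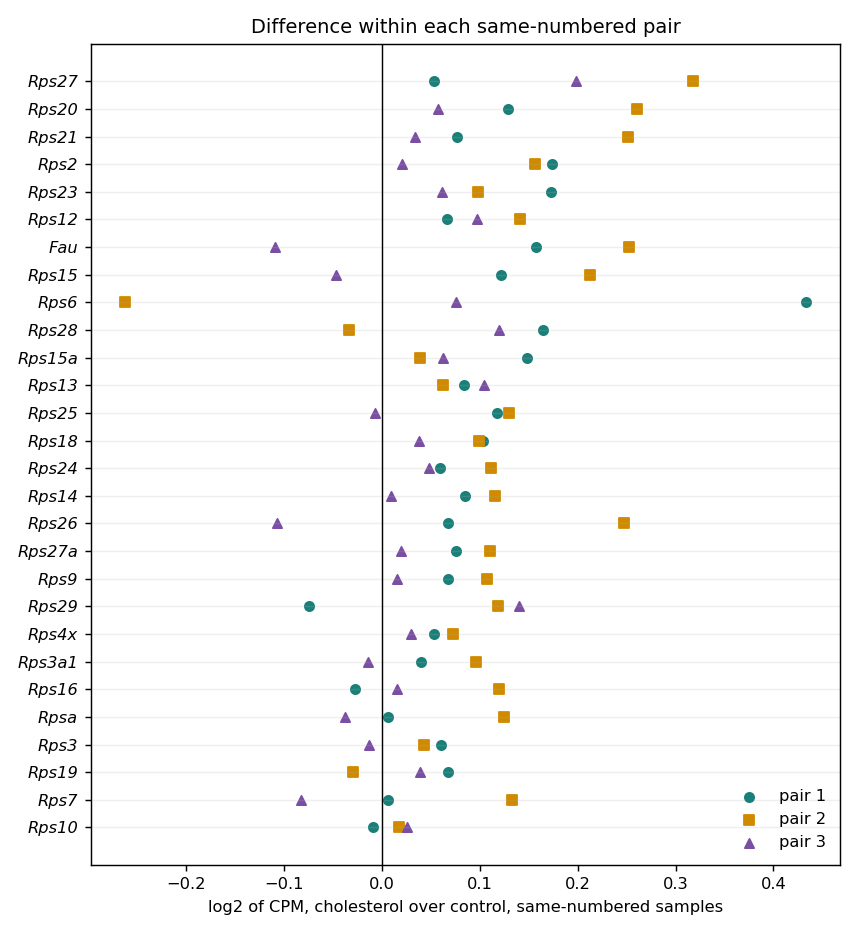
Difference between cholesterol and control in log2 CPM within each same-numbered pair (1 point per pair) for the 28 members, ordered by the block fit. Most points lie above 0, pair 3 mostly lies nearest to it, and Rps6 has the widest spread of the members.

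Genes mutated in Diamond-Blackfan anemia were described as a group of 9 members. All 9 had positive log2 fold changes (0.01 to 0.20, median 0.07), 3 of 9 were higher in all pairs, and Rps27 alone was called with the block. The other 19 members had a median of 0.08, with 11 of 19 higher in all pairs and Rps20 called. Rps19 is needed for maturation of the 18S RNA and is the gene most often mutated in the disease. Its standard error was the smallest of the members with the condition alone, but not with the block. Rps19 was measured at 662, 671 and 659 CPM in control and 693, 657 and 677 CPM in cholesterol samples, a log2 fold change of 0.03 (SE 0.06). The groups overlapped, pair 2 went the other way from pairs 1 and 3, and the block fit gave a 95% interval of -3.94 to 7.82% (adjusted p = 0.802).

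Rps24, also an 18S maturation factor, had 1146, 1115 and 1097 CPM in control and 1194.5, 1205 and 1135 CPM in cholesterol samples (log2 fold change 0.07, SE 0.06). It was higher in every pair, but cholesterol sample 3 lay below control sample 1 (block adjusted p = 0.310). Rps26 had 1362, 1111 and 1212 CPM in control and 1428, 1319 and 1126 CPM in cholesterol (0.07, SE 0.12). Its pairs disagreed, with differences of 0.07, 0.25 and -0.11 (block adjusted p = 0.608). Rps7 had 1182, 1083 and 1106 CPM in control and 1187, 1187 and 1045 CPM in cholesterol (0.02, SE 0.08), and Rps10, at the mRNA entry side of the head, had 865, 798 and 752 CPM against 859.6, 808 and 766 CPM (0.01, SE 0.08). These last were the 2 smallest differences of the 28, and the block gave adjusted p of 0.875 and 0.918.

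The remaining members of the group were expressed at lower CPM. Rps15a had 425, 434 and 409 CPM in control and 471, 446 and 427 CPM in cholesterol (log2 fold change 0.08, SE 0.06), higher in each pair, with 1 cholesterol sample below a control sample (block adjusted p = 0.274). Rps28 had 281, 296 and 264 CPM in control and 315, 289 and 287 CPM in cholesterol (0.08, SE 0.07, block adjusted p = 0.328). Rps29, a zinc-binding protein of the head, had 345, 325 and 295 CPM in control and 328, 353 and 325 CPM in cholesterol (0.06, SE 0.08, block adjusted p = 0.523). The last 2 were each lower with cholesterol in one pair.

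Rps27, a zinc finger protein of the platform, had the largest log2 fold change of the members, 0.20 (SE 0.14). It was measured at 259, 309 and 279.6 CPM in control and 269, 386 and 321 CPM in cholesterol samples, with pair differences of 0.05, 0.32 and 0.20, so that pair 2 carried the largest part. A near-identical copy, Rps27rt, is a separate row of the table, looked at after the values of Rps27 were seen. It holds 46.2% of the stretches of 50 bases of Rps27, and no other member shared more than 5% with another gene of the table. Rps27rt had 135, 127 and 117 CPM in control and 171, 64.9 and 136 CPM in cholesterol samples. Its pair differences were 0.35, -0.96 and 0.21, so it was lowest in the sample where Rps27 was highest.

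The sum of both genes was 394, 436 and 397 CPM in control (409 ± 23.5, SD, n = 3) and 440, 451 and 456 CPM in cholesterol samples (449 ± 8.19, SD, n = 3), and each cholesterol sample lay above each control sample. Fitted as one gene, the log2 fold change was 0.14, with an edgeR adjusted p of 0.9999 with the condition alone and 0.0615 with the block. The call of Rps27 was thus lost when its copy was counted with it, which left Rps20 as the single member called (adjusted p = 0.0469). Reads of the shared stretches can be split between the rows in either way, and the values of each row alone are uncertain.

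**Figure D4:**
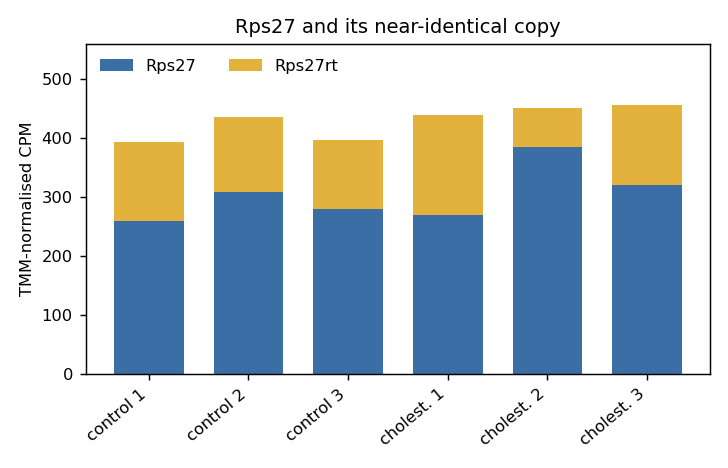
CPM of Rps27 (blue) and of its near-identical copy Rps27rt (yellow) in each of the 6 samples, stacked. The split between the rows differs most in cholesterol sample 2, while the sums lie between 394 and 456 CPM, with the 3 cholesterol sums above the 3 control sums.

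Rps20, a head protein with a bacterial counterpart, had 557, 481 and 479 CPM in control and 609, 576 and 499 CPM in cholesterol samples (log2 fold change 0.15, SE 0.10). It was higher in each pair, by 0.13, 0.26 and 0.06, and cholesterol sample 3 lay below control sample 1. Rps2 had 3051, 2824 and 2368 CPM in control and 3442, 3147 and 2401 CPM in cholesterol samples (0.13, SE 0.16). It was higher in each pair, and with the block it was 8.44% higher (95% interval 2.19 to 15.1%, adjusted p = 0.0987), which missed the threshold. Sample 1 was the highest and sample 3 the lowest in both groups.

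Members with functions beyond the ribosome core were examined next. Rpsa had 3892, 3618 and 3715 CPM in control and 3907, 3945 and 3618 CPM in cholesterol samples (log2 fold change 0.03, SE 0.07, block adjusted p = 0.761), with groups that overlapped. Rps14, whose loss of one copy causes the anemia of a myelodysplastic syndrome with a chromosome deletion, had 744, 626 and 699.9 CPM in control and 789, 679 and 705 CPM in cholesterol (0.07, SE 0.09, block adjusted p = 0.360). It was higher in each pair, with a difference of 0.01 in pair 3. Rps27a, made as a fusion with ubiquitin, had 665, 623 and 556 CPM in control and 701, 673 and 564 CPM in cholesterol (0.07, SE 0.11, block adjusted p = 0.369). Fau, made as a fusion with a ubiquitin-like protein, had 503, 448 and 504 CPM in control and 561, 533 and 467 CPM in cholesterol (0.10, SE 0.09, block adjusted p = 0.461). Both fusions were higher in pairs 1 and 2, and in pair 3 Rps27a differed by 0.02 and Fau by -0.11.

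Rps6 was the least precise member. It was measured at 48.7, 49.4 and 41.4 CPM in control and 65.7, 41.2 and 43.6 CPM in cholesterol samples, and its pair differences of 0.43, -0.26 and 0.08 did not share a sign. The single high sample was cholesterol sample 1. Its log2 fold change was 0.11 (SE 0.19) and -0.13 without that sample, and the 95% interval of the block fit, -25.8 to 52.9%, was the widest of the members (adjusted p = 0.851).

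The 12 members described only by their fits ran from Rps3, which lines the mRNA entry channel (log2 fold change 0.03), to Rps21 (0.12). Between them were Rps16 (0.04), Rps3a1 (0.04), Rps4x (0.05), Rps9 (0.07), Rps18 (0.08), Rps13 (0.08), Rps25 (0.09), Rps15 (0.09), Rps12 (0.10) and Rps23 (0.11). Their block adjusted p lay between 0.105 (Rps23) and 0.751 (Rps3), so none of them passed. Rps3, Rps3a1, Rps15 and Rps25 were higher in pairs 1 and 2 and lower in pair 3, and Rps16 was lower in pair 1 and higher in pairs 2 and 3.

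The members were also grouped by position in the subunit and by conservation. The 12 proteins of the head had a median log2 fold change of 0.08 (0.01 to 0.15), with 4 higher in all pairs, and the 16 of the body and platform had a median of 0.08 (0.02 to 0.20), with 10 higher in all pairs. The 13 proteins with bacterial counterparts had a median of 0.08, with 8 higher in all pairs, and the other 15 a median of 0.07, with 6. The 7 members with an annotated TOP start had a median of 0.10 (0.01 to 0.20), with 4 higher in all pairs, and the 17 with a start of another kind a median of 0.07 (0.02 to 0.13), with 7. These are descriptions of small groups, and the differences between the groups were not tested.

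The large subunit gave similar values. Of 47 genes of 60S proteins, 47 had a log2 fold change above 0, with a median of 0.08. In all pairs 27 were higher, and 4 were called higher with the block. Of all genes tested, 52.1% were above 0, 19.9% were higher in all pairs and 1.65% were called higher with the block. The 40S genes took 2.68, 2.57 and 2.33% of all counts in control samples and 2.92, 2.81 and 2.39% in cholesterol samples (2.53 ± 0.179% and 2.71 ± 0.278%, SD, n = 3). The 60S genes took 4.64, 4.32 and 3.93% in control and 5.02, 4.81 and 4.07% in cholesterol. The ratio of 40S to 60S counts was 0.588 ± 0.00947 in control and 0.585 ± 0.00318 in cholesterol samples (SD, n = 3), a difference smaller than the spread between control samples.

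The adult globin genes took 14.6, 13.8 and 17.9% of the counts in control and 12.5, 13.0 and 16.2% in cholesterol samples, less with cholesterol in each pair and most in sample 3 of each group. Of the counts outside the globins the 40S genes took 3.14, 2.98 and 2.84% in control and 3.34, 3.22 and 2.86% in cholesterol samples, again higher in each pair and least so in pair 3. The granulocyte, macrophage, mast cell and early progenitor markers given above were likewise lower with cholesterol in each pair. So were the sums of the late erythroblast markers (164352, 152819 and 206433 CPM in control and 137759, 143616 and 184315 CPM in cholesterol samples), of the megakaryocyte markers (69.1, 61.0 and 75.2 CPM against 65.4, 58.2 and 59.7 CPM) and of the lymphoid markers (0.809, 1.29 and 5.61 CPM against 0.444, 0.790 and 2.35 CPM). The hepatocyte sum was the exception, with 112, 93.2 and 267 CPM in control and 195, 64.4 and 226 CPM in cholesterol samples, higher in pair 1. The part of the globin share and of these markers in the member differences was not tested.

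**Figure D5:**
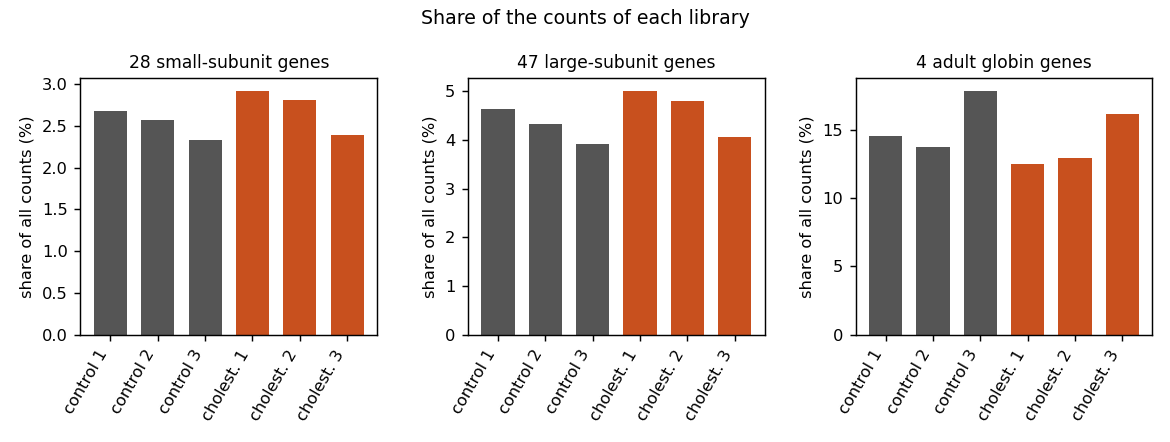
Share of all counts of a library taken by the 28 small-subunit genes, the 47 large-subunit genes and the 4 adult globin genes, 1 bar per sample (gray, control; orange, cholesterol). Sample 3 has the lowest ribosomal and the highest globin share in each group.

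Other lists related to ribosome supply are given beside all genes tested, of which 52.1% were above 0, 19.9% higher in all pairs, and 1.65% called higher and 5.2% lower with the block. Of 22 TOP mRNAs that encode no ribosomal protein, such as translation factors, 17 had a log2 fold change above 0 (median 0.07), and with the block Eif3f was higher (0.17, adjusted p = 0.0160) and Vim lower (-0.82, adjusted p = 0.0272). Vim encodes the cytoskeletal protein vimentin. Of 49 factors that assemble the 40S subunit, 33 were above 0 (median 0.02), 10 were higher in all pairs (20.4%), and Bms1 (0.17, adjusted p = 0.0231) and Nop56 (0.19, adjusted p = 0.0147), both nucleolar proteins of early assembly, were called with the block. Of 30 proteins of the small mitochondrial subunit, 20 were above 0 (median 0.03) and 7 were higher in all pairs (23.3%). The shares of the assembly factors and mitochondrial proteins higher in all pairs were near that of all genes. That of the TOP mRNAs was the same as that of the members (50%). The difference between the lists and the members was not tested.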

How the data were processed

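RNA-seq of 3 control and 3 cholesterol samples was analyzed. The authors deposited expected counts per gene (27.9 to 29.5% of the values in a sample not whole), without normalization, and a second table whose unit is not named. The deposited values of the latter were taken as FPKM, because with the library total they imply a gene length that varied between samples by a median of 0.368% over 7833 genes. The submitters' processing notes name GRCm38.p6, HISAT2 2.0.4, Bowtie2 2.2.5, RSEM 1.2.12 and DESeq2 1.4.5, without their roles. Strand use in counting is not given in the sources used here.

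Counts, 19826849 to 20061724 per sample, were rounded, since the tests had been planned for whole numbers. The test was that of edgeR 4.0.16, run under R 4.3.3 (TMM, filterByExpr with at least 10 counts in enough samples and 15 in total, robust quasi-likelihood F test, Benjamini-Hochberg adjustment over 11277 genes, of which 28 were members, threshold 0.05). CPM are TMM-normalized, standard errors come from the F statistic, and intervals are 95%. Groups of 3 allow an exact two-sided permutation test no p below 0.1, so none is given. The replicate numbers come from the sample labels. Around the means of their groups, samples of the same number deviated with correlations of 0.772, 0.436 and 0.848 for numbers 1 to 3 over 11277 genes. Samples of different numbers correlated at -0.824 to 0.415, and the highest of these, control 1 with cholesterol 2, was close to the value of number 2. Since each same-numbered pair was above 0.1, the numbers were taken to pair the samples. The fit with the number as a block is given beside that with the condition alone. No libraries were copies of each other (chi-square per degree of freedom at least 8.65).

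Alternatives were DESeq2 1.42.0, limma 3.58.1 on log2(FPKM + 1) and log2(FPKM + 0.1), other scalings and filters, each sample or pair left out, and, chosen after seeing the data, Rps27 summed with Rps27rt. The members and gene lists were chosen with earlier results of these data known. All members are named. Values in every sample are given for the Diamond-Blackfan anemia genes, Rps6, Rps14, Rpsa, Rps27a, Fau, the 3 members with the smallest p with the block, and the 2 highest and 2 lowest in FPKM; other genes are Abcg1 and, where 3 or fewer, the genes of a comparison list called with the block. Start and promoter sequences are those of RefSeq (GRCm38.p6), and shared stretches were counted in GENCODE M21 transcripts by symbol. The test scripts were tested on simulated data.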

Additional observations from a re-analysis of the deposited data

How the results depend on the processing

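All 28 members kept a log2 fold change above 0 in each of the 15 settings that used all samples (420 values, 0 reversed). The median lay between 0.07 with upper-quartile scaling and 0.11 with total counts or FPKM. The median of all genes also rose, from 0.0064 with TMM to 0.037 with total counts and 0.027 or 0.034 with FPKM. The median of the members minus that of all genes lay between 0.0663 (at least 10 counts in every sample) and 0.0879 (no filter). The replicate block raised the calls over all genes from 1 higher and 0 lower to 186 and 586, and those of members from 0 to 2. The block gave 278 and 435 calls with total counts (5 members: Rps2, Rps12, Rps20, Rps23 and Rps27; 39.0% of calls higher, against 24.1% with TMM), 178 and 567 with TMM without globins (2 members), 185 and 589 with Rps27 and Rps27rt summed (1 member), and 41 and 248 with DESeq2 (0 members). DESeq2 without the block called 3 genes higher and 28 lower. The number of members whose groups did not overlap was 1, not 0, where at least 10 counts were required in every sample and where Rps27 and Rps27rt were summed. The cause of these changes was not tested.

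With 1 sample left out, the genes called lower numbered 0 to 7, the members above 0 between 18 and 28, the members without overlap 0 to 14 (14 without cholesterol sample 3), and the median log2 fold change of the members lay between 0.015 and 0.14. Of the members that fell below 0 in some of these settings, the log2 fold changes ranged from -0.00478 to 0.0819 for Rps3, -0.0277 to 0.139 for Rps3a1, -0.0208 to 0.14 for Rps4x, -0.133 to 0.232 for Rps6, -0.0121 to 0.0821 for Rps7, -0.00667 to 0.159 for Rps9, -0.035 to 0.0693 for Rps10, -0.0142 to 0.173 for Rps13, -0.00737 to 0.0916 for Rps16, -0.00124 to 0.194 for Rps25 and -0.00663 to 0.164 for Rps26. With the block, leaving out pair 1, 2 or 3 gave 118, 67 or 210 calls higher and 703, 229 or 516 lower, 1, 0 or 8 members called and 3, 3 or 14 members without overlap. Below 0 then lay Rps6 (-0.0939 without pair 1) and, without pair 2, Rpsa (-0.0162), Rps7 (-0.0383), Rps16 (-0.00606) and Rps26 (-0.0194). Smaller groups overlap less often, and the share of all genes without overlap was not computed with a sample or pair left out. The counts of members without overlap in these settings therefore stand without a background. With 1 sample out, the remaining pair is assumed to vary like the other group. The lowest count of a member was 797, in Rps6, which also had the widest interval.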
